A study of Homo sapiens with 6 samples.

Results

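The comparison described here sets 2 erlotinib-treated libraries made with short hairpin RNA (shRNA) against 2 erlotinib-treated libraries made without it. It uses 4 of the study's 6 libraries and 859 of their 2288 cells. PC9 is a human lung adenocarcinoma line that depends on mutant EGFR, the receptor kinase that erlotinib blocks, and its single cells were profiled by Drop-seq, in which each captured messenger RNA molecule carries a unique molecular identifier (UMI). Per the labels, all 4 libraries received 2 µM erlotinib for 1 day, though for CPI-455 they also date it to the day after seeding, so the exposure of that library is unclear. The shRNA arm holds 1 library transduced with pLVTHM-shKDM5A-GFP, with erlotinib on day 4 after transduction, and 1 that received pLVTHM-shKDM5B-GFP in addition, with erlotinib on day 5. The other arm holds 1 library treated for 4 days with 6.25 µM CPI-455, a small-molecule KDM5 inhibitor, without virus, and 1 transduced with pLenti-CMV-Hygro-3xFLAG-HA-KDM5A, with erlotinib on day 6. The study's remaining libraries had no erlotinib: cells transduced with the scrambled vector pLVTHM-shsc-GFP, and untreated cells. Serum was 10% for cells that had received virus and 5% for those that had not.

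Each condition is 1 library, so the libraries of an arm are not replicates of a condition. The p-values below set the arms against the spread within them, to which the different KDM5 manipulations contribute. No library has erlotinib without a KDM5 manipulation. Between the arms, the pLVTHM vector, the knockdown and the day of erlotinib differ together and cannot be told apart. Virus and serum alone do not divide the arms, since the KDM5A cDNA library shares both with the shRNA libraries.

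Cells were barcodes with at least 500 UMIs and at most 20% mitochondrial UMIs: 374 with KDM5A shRNA, 152 in the library labelled KDM5A and KDM5B shRNA (the labelled double shRNA library), 202 with CPI-455 and 131 with KDM5A cDNA. Summed UMIs were between 590091 and 1596385 in these libraries, and levels are given in CPM, the UMIs of a gene scaled to a fixed total per library. Median depth was between 2985.5 and 3762.5 UMIs per cell, and 1 barcode was shared, by the labelled double shRNA and CPI-455 libraries. The epithelial markers were present in every library, EPCAM between 480 and 1002 CPM. Of the fibroblast, endothelial and leukocyte markers, all were at or below 11.3 CPM in every library except CD68, which lay between 22.03 and 42.5 CPM. Mitochondrial UMIs made up 7.04% and 7.99% of the shRNA libraries against 9.18% and 8.41% of the others, and of barcodes with at least 500 UMIs the labelled double shRNA library lost 17.8% and the KDM5A cDNA library 9.03% to the mitochondrial limit.

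KDM5A and KDM5B are demethylases that remove methyl marks of active promoters from histone H3, and KDM5A is known for its part in drug tolerance of PC9 cells. Acute-phase and mucosal defence genes encode secreted proteins that epithelia make in inflammation, many of them under NF-kB. Sterol and fatty acid synthesis genes are switched on together by the SREBP transcription factors when membrane cholesterol is low, and INSIG1 holds these factors in the endoplasmic reticulum when it is high.

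The targeted transcripts were examined first. KDM5A was at 56.4 CPM with KDM5A shRNA and 41.3 CPM in the labelled double shRNA library, against 120.2 CPM with CPI-455 and 164 CPM with KDM5A cDNA. Both shRNA libraries thus lay below both others, and also below the scrambled (81.9 CPM) and untreated (121 CPM) libraries. The fitted log2 fold of the shRNA arm over the other arm was -1.48 ± 0.28 (SE), which missed the threshold (edgeR adjusted p = 0.0625). KDM5B was at 151 CPM with KDM5A shRNA, 138 CPM in the labelled double shRNA library, 102 CPM with CPI-455 and 94.9 CPM with KDM5A cDNA. The library labelled as carrying KDM5B shRNA was therefore not low in KDM5B, and its value lay above those of the scrambled (46.4 CPM) and untreated (60.4 CPM) libraries. For EGFR the arms overlapped, with 335 and 273 CPM in the shRNA arm and 312 and 283 CPM in the other (log2 fold 0.05 ± 0.20, edgeR adjusted p = 0.944).

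The vector itself was counted in a row named pLVTHM, with 134 UMIs with KDM5A shRNA, 66 in the labelled double shRNA library and 20 in the scrambled library. It had 0 UMIs with CPI-455, with KDM5A cDNA and in untreated cells. At least 1 such UMI was found in 19.5% of cells with KDM5A shRNA and 27.0% in the labelled double shRNA library. In the scrambled library the share was 4.18%, so its vector signal was well below that of the shRNA arm. Pooled over the arm, the shRNA libraries were 42.0-fold above a level of 3 UMIs over the other arm (edgeR adjusted p = 0.00139). That fold leaves out the counting error of the shRNA arm's own UMIs. RPPH1, the RNA component of RNase P, whose H1 promoter drives the hairpin in this vector, followed the same division. Its UMIs numbered 92 and 59 in the shRNA arm, 1 and 0 in the other arm, and 57 in the scrambled against 14 in the untreated library. The ratio of the arms was 95.2 (95% counting interval 16.8 to 3784), and whether these reads came from the genomic gene or the vector was not tested. UMIs of the vector row were thus found in the 3 libraries labelled with a pLVTHM vector and in none of the other 3.

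Of 8623 genes that edgeR's quasi-likelihood test compared between the arms, 26 were higher in the shRNA arm (0.302%) and 9 were lower (0.104%) at a Benjamini-Hochberg adjusted p under 0.05. The genes that rose included 8 acute-phase and mucosal defence genes, and those that fell 3 sterol and 2 fatty acid synthesis genes. Counts of calls depended on the libraries present. They were 56 higher and 27 lower without the KDM5A shRNA library, 182 and 326 without the labelled double shRNA library, 143 and 163 without CPI-455, and 212 and 112 without KDM5A cDNA, where an arm has a lone library that is assumed to vary like the other arm. The folds of all 26 higher and 9 lower genes kept their direction in each of these fits. These fits reuse the libraries that chose the genes, so this was largely set in advance and adds no support. In a fit of all 6 libraries as 3 arms, where the drug-free pair entered the spread, edgeR called 10 genes higher, each among the 26, and 0 lower (525 lower at an unadjusted p under 0.05). The calls kept there included PDZK1IP1, S100A9, PI3, MMP7, SAA2, TSPAN2, MYL9, FN1 and LCN2.

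By the simpler criterion that both shRNA libraries lie on the same side of both others, 2530 of 13192 genes with at least 10 UMIs were higher (19.2%) and 3151 were lower (23.9%). For 250 of the higher genes (1.9%) and 239 of the lower (1.81%) the exact 95% counting interval of the nearest pair of libraries also excluded equality. These counts were 343 and 339 without the KDM5A shRNA library, 660 and 1083 without the labelled double shRNA library, 574 and 648 without CPI-455, and 604 and 719 without KDM5A cDNA. Leaving out a library drops a condition from the criterion, so such higher counts were largely set in advance. Protein-coding genes were 245 of the 250 higher genes, but 156 of the 239 lower, with 40 processed pseudogenes among the rest. Processed pseudogenes took 1.32% and 2.49% of UMIs in the shRNA arm, against 2.90% and 3.42% in the other, and 1.38% and 1.02% in the drug-free libraries. Among the 401 tested, 397 had a fold below 0, with a median log2 fold of -0.87 against -0.01 for all genes, and 1 was called, PTMAP5. With mitochondrial genes and processed pseudogenes left out, edgeR called 36 genes higher and 14 lower, among them all 26 higher and 8 of the 9 lower genes, PTMAP5 no longer being tested. Genes beyond counting error then numbered 227 higher and 233 lower.

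The shRNA libraries also had the smallest median difference of the 6 pairs, without a match for depth. Over 4350 genes at 50 CPM or more in some library, the median absolute log2 ratio was 0.23 between them, with 202 genes (4.64%) more than a factor of 2 apart, and 0.28 between CPI-455 and KDM5A cDNA, with 235 genes. Pairs across the arms had medians between 0.28 and 0.35. The lowest of these, between the labelled double shRNA and CPI-455 libraries, was no larger than that within the other arm. Among the erlotinib libraries, KDM5A shRNA held the most UMIs and KDM5A cDNA the fewest. Counting error therefore differs between pairs, and its part in this ranking was not tested.

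**Figure D1:**
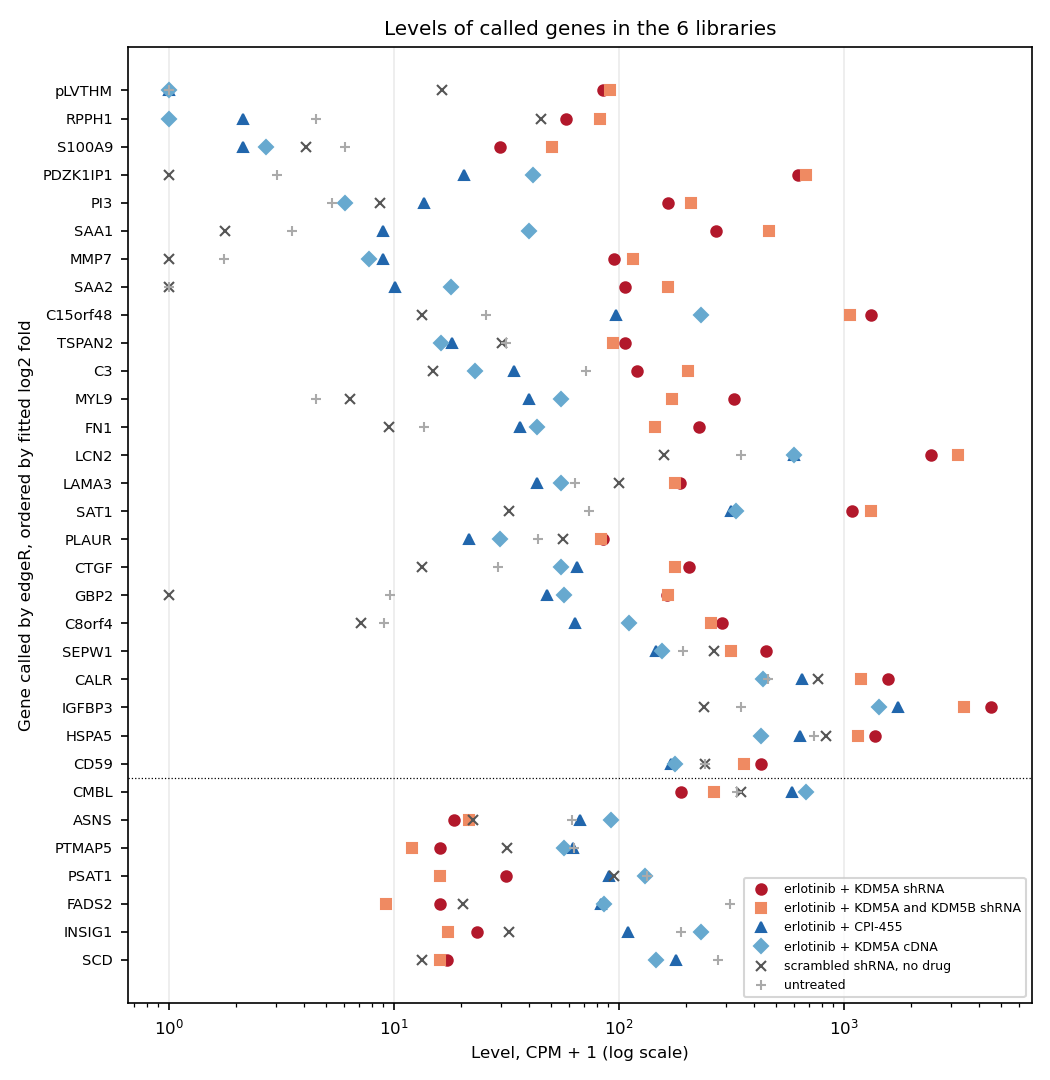
Level of genes called by edgeR in each of the 6 libraries, as CPM + 1 on a log axis. Genes are ordered by fitted log2 fold, with lower genes under the dotted line. Red circles and orange squares, the shRNA libraries, lie to the right of every other symbol for each higher gene drawn.

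Of the 11 acute-phase and mucosal defence genes with at least 10 UMIs, all 11 were higher in both shRNA libraries than in both others, against 19.2% of all genes. Of the 10 tested, 8 rose, and the median log2 fold was 2.96 against -0.01 for all genes. This list, like those below, was chosen with earlier results of these data known. Its counts therefore describe the list and do not test it. PDZK1IP1, a small membrane protein of epithelia, was at 627 CPM with KDM5A shRNA and 679 CPM in the labelled double shRNA library, 19.5 CPM with CPI-455 and 40.7 CPM with KDM5A cDNA. It had no UMI in the scrambled library and 2.02 CPM in untreated cells. The arms were far apart for this gene, with a log2 fold of 4.51 ± 0.32 (edgeR adjusted p = 0.00104).

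LCN2, the iron-sequestering lipocalin, reached 2435 and 3227 CPM in the shRNA arm against 601 and 599.9 CPM in the other. In the drug-free libraries it was at 158 CPM (scrambled) and 349 CPM (untreated), so both erlotinib arms lay above them. Its log2 fold was 2.25 ± 0.20 (edgeR adjusted p = 0.00139). PI3, the elastase inhibitor elafin, had 165 and 209 CPM with shRNA and 12.6 and 5.08 CPM without, and the scrambled (7.73 CPM) and untreated (4.30 CPM) libraries lay in the range of the latter (log2 fold 4.31 ± 0.35, edgeR adjusted p = 0.00119).

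Serum amyloid A, an acute-phase apolipoprotein, has near-identical copies between which reads can be misassigned. SAA1 was at 269 and 464 CPM in the shRNA arm, 8.01 CPM with CPI-455 and 39.0 CPM with KDM5A cDNA, and SAA2 at 106 and 164 CPM against 9.16 and 16.9 CPM. SAA2 had no UMI in either drug-free library, and SAA1 was under 3 CPM in both. Their log2 folds were 4.09 ± 0.53 and 3.42 ± 0.39 (edgeR adjusted p = 0.0108 and 0.00583). The other called members were S100A9, a subunit of the antimicrobial calprotectin (log2 fold 4.68), complement C3 (2.51) and the urokinase receptor PLAUR (1.80). SLPI, an antiprotease, and VNN1, a pantetheinase, had folds of 1.22 and 1.41 and did not pass the test.

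C15orf48, a small mitochondrial protein induced in inflammation, was at 1323 and 1065 CPM with shRNA and 96.1 and 230.5 CPM without, against 12.4 CPM in the scrambled and 24.8 CPM in the untreated library. Its libraries fell into 3 levels with no overlap: the shRNA arm, the other erlotinib libraries, then the drug-free libraries (log2 fold 2.90 ± 0.37, edgeR adjusted p = 0.0108). That order held for 14 of the 26 called genes. Among the 250 genes higher beyond counting error it held for 116 (46.4%), and the shRNA arm lay above all 4 other libraries for 217 (86.8%). Among all 2530 genes higher in both shRNA libraries, not matched for level, these shares were 22.1% and 52.5%. Since the shRNA arm's place above the other arm was set by the choice of these genes, only the place of the drug-free libraries adds to it. SAT1, the acetyltransferase that starts polyamine breakdown, gave a further example, with 1094 and 1321 CPM, then 315 and 330.5 CPM, then 31.7 and 73.0 CPM (log2 fold 1.92 ± 0.20, edgeR adjusted p = 0.00325).

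Chemokine and NF-kB genes leaned the same way without a call. Of 14 chemokines and cytokines, 10 were higher in both shRNA libraries, against 19.2% of all genes. The 10 tested had a median log2 fold of 1.43, against -0.01 for all genes. The neutrophil chemokine CXCL1 was at 71.4 and 26.2 CPM with shRNA, 1.14 CPM with CPI-455 and 18.6 CPM with KDM5A cDNA (edgeR adjusted p = 0.1996). IL8, of the same family, was at 96.5 and 38.6 CPM against 2.29 and 57.6 CPM, so its arms overlapped in summed level. The 57.6 CPM with KDM5A cDNA came from 3 of 131 cells (2.29%). Cells with an IL8 UMI made up 15.2% and 9.21% with shRNA and 0.990% with CPI-455. Of the 19 NF-kB feedback and signalling genes tested, 17 had folds above 0, with a median of 0.78. Over all 8623 genes tested, 4227 folds were above 0 and 4396 below, the base for such counts here and below. That median was 0.08 without CPI-455. NFKBIA, the NF-kB inhibitor, was at 317 and 254 CPM with shRNA against 96.1 CPM with CPI-455 and 188 CPM with KDM5A cDNA, and was not called (edgeR adjusted p = 0.203). The chemokine median was 0.91 without CPI-455, 0.89 without the KDM5A shRNA library and 0.50 with cells thinned to 1000 UMIs.

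Genes of adhesion, matrix and its turnover formed the next group. MMP7, the protease matrilysin, was at 94.0 and 114 CPM against 8.01 and 6.78 CPM, and had 0 CPM in the scrambled and 0.758 CPM in the untreated library (log2 fold 3.79 ± 0.35, edgeR adjusted p = 0.0015). Of the 21 secreted proteases and inhibitors tested, 2 rose, and the median log2 fold was 0.43. Fibronectin FN1 rose by a log2 fold of 2.30 ± 0.30, from 35.5 and 42.4 CPM to 227 and 145 CPM (edgeR adjusted p = 0.0115). It was the called gene among 9 mesenchymal and matrix genes tested, and VIM (vimentin) was at 37.6 and 20.7 CPM against 18.3 and 13.6 CPM and was not called. LAMA3, an alpha chain of the epithelial laminin that anchors hemidesmosomes, was at 187 and 176 CPM against 42.3 and 54.2 CPM (log2 fold 1.95 ± 0.25, edgeR adjusted p = 0.0108). LAMB3, a partner chain, was not called, with a fold of 1.46 (edgeR adjusted p = 0.0631). Of the 16 integrin and laminin genes tested the median was 0.65. Of 17 with at least 10 UMIs, 11 were higher in both shRNA libraries, against 19.2% of all genes. CTGF, a matricellular target of YAP, was the 1 call among 24 YAP and TGF-beta targets, with 204 and 178 CPM against 64.1 and 54.2 CPM (log2 fold 1.71 ± 0.23, edgeR adjusted p = 0.0137). The contractile gene MYL9 (log2 fold 2.47) and the tetraspanin TSPAN2 (2.63) were called as well.

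KRT17, a keratin of basal and stressed epithelium, was at 2716 and 2064 CPM with shRNA, 258 CPM with CPI-455 and 691 CPM with KDM5A cDNA, against 32.4 CPM (scrambled) and 40.7 CPM (untreated). With the spread within the other arm it fell just short of a call (log2 fold 2.35 ± 0.40, edgeR adjusted p = 0.0510). Of the 14 keratins with at least 10 UMIs, 6 were higher in both shRNA libraries than in both others (19.2% of all genes) and 0 were lower. The 11 tested had a median log2 fold of -0.15, which was 0.53 without CPI-455, and edgeR called 0 of them, with 2 higher and 1 lower at an unadjusted p under 0.05. IGFBP3, a growth factor binding protein and the called member of 14 genes from the drug tolerance literature, was at 4515 and 3438 CPM against 1749 and 1434 CPM (log2 fold 1.34 ± 0.19, edgeR adjusted p = 0.0184). Its drug-free levels of 239 and 349 CPM were below both arms. GBP2, a guanylate-binding protein induced by interferon, was at 163 and 164 CPM against 46.9 and 55.9 CPM and was the 1 call among 15 interferon response genes, whose median log2 fold was 0.07.

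All 17 endoplasmic reticulum chaperone and unfolded protein response genes tested had folds above 0, with a median of 0.72, and 2 rose. CALR, the calcium-binding chaperone calreticulin, was at 1574 and 1199 CPM with shRNA against 655 and 439 CPM (log2 fold 1.36 ± 0.23, edgeR adjusted p = 0.0484). HSPA5, the chaperone BiP, was at 1381 and 1159 CPM against 639 and 430.4 CPM (log2 fold 1.27 ± 0.22, edgeR adjusted p = 0.0485). For both genes the shRNA arm lay above the drug-free libraries. For HSPA5 the scrambled (836 CPM) and untreated (736 CPM) libraries lay above both other erlotinib libraries. For CALR the scrambled library (769 CPM) lay above both as well, and the untreated library (463 CPM) lay between them. Both calls were lost when every barcode was taken as a cell (edgeR adjusted p = 0.0729 for each).

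**Figure D2:**
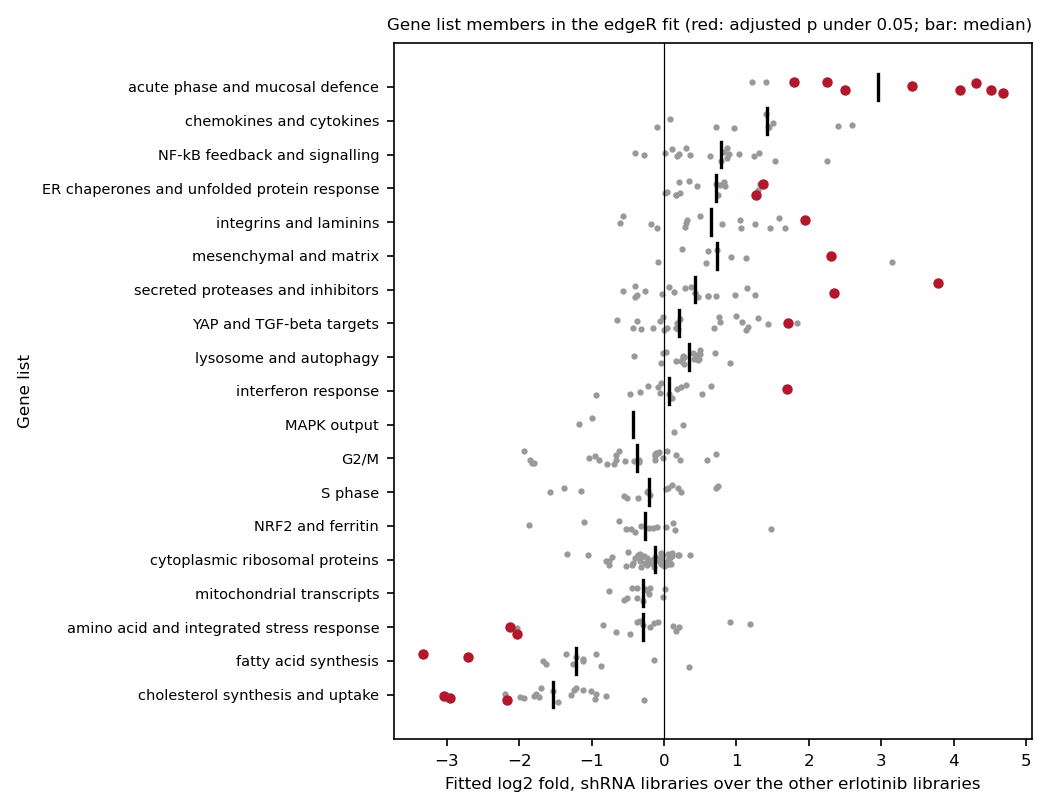
Fitted log2 fold of the shRNA arm over the other erlotinib libraries for each tested member of 19 gene lists. Red points passed the test, grey points did not, and black bars are list medians, from 2.96 for acute-phase genes to -1.53 for cholesterol genes.

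Sterol synthesis and uptake genes were lower with shRNA almost throughout. All 21 genes tested had folds below 0, with a median log2 fold of -1.53, and 22 of 23 with at least 10 UMIs were lower in both shRNA libraries than in both others, against 23.9% of all genes. Of these, 3 fell, INSIG1 among them. INSIG1 was at 22.6 CPM with KDM5A shRNA and 16.5 CPM in the labelled double shRNA library, 109 CPM with CPI-455 and 232 CPM with KDM5A cDNA (log2 fold -3.04 ± 0.41, edgeR adjusted p = 0.0137).

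Enzymes of the pathway were lower without passing the test. HMGCS1, which makes the precursor of mevalonate, was at 82.7 and 70.3 CPM against 109.9 CPM with CPI-455 and 424 CPM with KDM5A cDNA. The gap to CPI-455 was thus much smaller than the gap to KDM5A cDNA. With cells thinned to 1000 UMIs, 8.73% and 5.65% of shRNA cells had an HMGCS1 UMI. That was not lower than the 4.88% with CPI-455, but lower than the 31.4% with KDM5A cDNA. MSMO1, a sterol oxidase, was at 39.5 and 31.7 CPM against 88.1 and 254 CPM, and DHCR7, the last reductase of the pathway, at 30.1 and 19.3 CPM against 72.1 and 130.5 CPM. Summed over the list, levels were 880 and 693 CPM in the shRNA arm, 1615 CPM with CPI-455 and 2952 CPM with KDM5A cDNA. The list's median log2 fold was -2.14 without CPI-455 and -1.004 without KDM5A cDNA.

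Fatty acid synthesis gave a like picture, with 12 of 13 folds below 0, a median of -1.21 and 2 calls. SCD, the desaturase that makes oleate, was at 16.3 and 15.2 CPM with shRNA against 179.7 and 146 CPM (log2 fold -3.33 ± 0.27, edgeR adjusted p = 0.00119). FADS2, the desaturase of polyunsaturated fatty acids, was at 15.03 and 8.27 CPM against 82.4 and 84.7 CPM (log2 fold -2.70 ± 0.34, edgeR adjusted p = 0.0108). The arms did not overlap for either gene. The shRNA libraries were nearly equal in SCD but not in FADS2, whose fold was -3.29 without the KDM5A shRNA library. With cells thinned to 1000 UMIs, FADS2 missed the threshold (edgeR adjusted p = 0.0521). FASN, fatty acid synthase, had 21.9 and 19.3 CPM against 80.1 and 54.2 CPM and was not called (edgeR adjusted p = 0.0632).

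The drug-free pair, which shares no library with the comparison, divided in the same direction on these genes. SCD was at 12.4 CPM in the scrambled and 276 CPM in the untreated library, INSIG1 at 31.7 and 189 CPM, and FADS2 at 19.3 and 313 CPM. With this spread in the fit of all 6 libraries, SCD had an edgeR adjusted p of 0.453. For each of these 3 genes, all 3 libraries with pLVTHM lay below all 3 without it. That held for 16 of the 23 sterol genes and 8 of the 13 fatty acid genes, against 5.21% of all genes and 21.8% of the genes lower in both shRNA libraries. The summed sterol level was 1032 CPM in the scrambled and 3366.5 CPM in the untreated library. The KDM5A cDNA library, in the same 10% serum as the pLVTHM libraries, had the higher level of 2952 CPM. Whether vector, virus handling or serum took part in these levels was not tested.

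**Figure D3:**
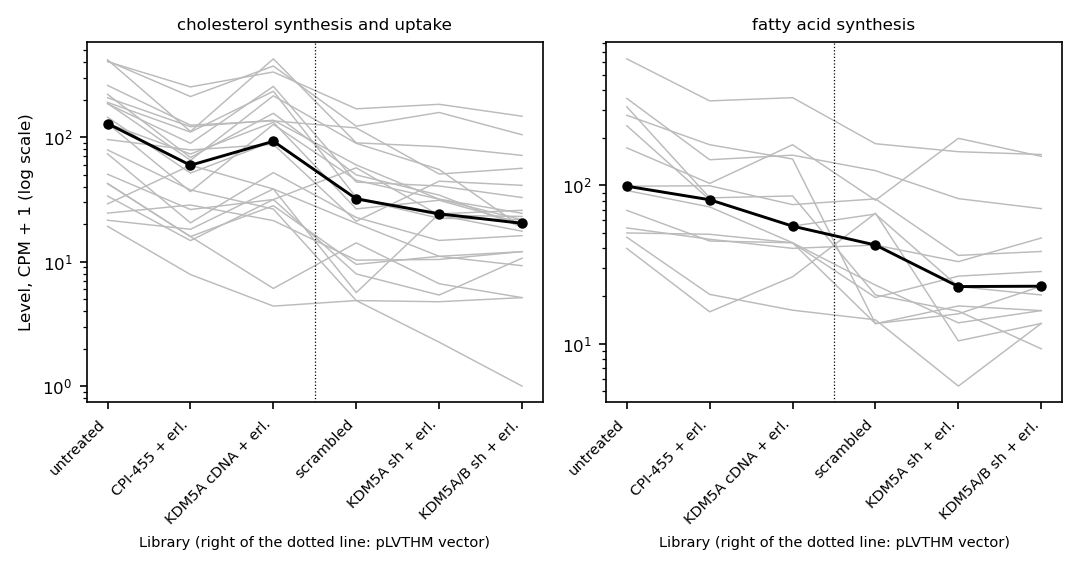
Levels (CPM + 1, log axis) of sterol genes (left panel) and fatty acid genes (right panel) across the 6 libraries, with the pLVTHM libraries to the right of the dotted line. Grey lines are genes and the black line is the list median. The scrambled library, without erlotinib, sits with the shRNA arm.

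The same placement was counted over all separated genes. Being higher in all 3 pLVTHM libraries than in the 3 others held for 2.46% of all genes and for 12.8% of the 2530 genes higher in both shRNA libraries, a choice that fixes most of that condition. Of the 250 higher beyond counting error, it held for 42 (16.8%). In the other direction, it held for 21.8% of the 3151 genes lower in both shRNA libraries, and for 82 of the 239 lower beyond counting error (34.3%). The scrambled library lay above the untreated one beyond counting error for 38 of the 250 higher genes and below it for 89, against 15% and 16.3% of all genes. For the 239 lower genes it lay below for 86 and above for 71. The median of the highest erlotinib-library level was 244 CPM for the 250 genes and 183 CPM for the 239. Over all genes it was 27.5 CPM. A counting interval excludes equality more readily at higher levels, and these shares were not matched for level. Of the 26 called higher genes, 7 (26.9%) were higher in all 3 pLVTHM libraries, the vector row among them. Of the 9 called lower genes, 7 were lower in all 3 pLVTHM libraries. The exceptions among the lower genes were PSAT1 and CMBL.

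For 4 of the lower genes the stretch before the start site is shown because the CCAAT box, bound by NF-Y, a partner of SREBP, is known from sterol gene promoters. The sequences are from RefSeq (GRCh38.p14), 5′ to 3′ on the gene's strand, with each CCAAT or its reverse complement ATTGG in capitals. SCD (chr10:100346994-100347061, plus strand) and INSIG1 (chr7:155297698-155297722, plus strand) were called, and MVD (chr16:88663162-88663260, minus strand) and IDI1 (chr10:1049222-1049344, minus strand) encode mevalonate pathway enzymes.
SCD: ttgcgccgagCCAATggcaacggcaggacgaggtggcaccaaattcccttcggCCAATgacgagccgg
INSIG1: ccggcctcccATTGGttgcggccgc
MVD: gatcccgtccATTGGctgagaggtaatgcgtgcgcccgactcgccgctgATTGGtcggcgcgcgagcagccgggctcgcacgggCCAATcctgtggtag
IDI1: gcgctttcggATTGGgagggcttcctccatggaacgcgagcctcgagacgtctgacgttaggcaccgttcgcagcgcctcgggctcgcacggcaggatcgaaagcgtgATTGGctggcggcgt
SCD holds 2 matches, INSIG1 1, MVD 3 and IDI1 2. Lipid genes looked up without a match, or with an annotated exon over the stretch, were not shown. Each gene printed therefore has a match by choice. In the 250 bases before the start, CCAAT on either strand was found for 37.0% of 27305 genes in the RefSeq table. Of the 25 sterol genes, 18 had an entry, and 16 of these held a match. The same was true of 9 of 14 fatty acid genes and 4 of 15 acute-phase genes with an entry. Among genes tested by edgeR it was 41.3% of the 5949 with an entry. Genes without an entry could not be examined, and no test was run on these shares. These matches describe letters, not binding.

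Amino acid synthesis genes made up the remaining calls with a known pathway. ASNS, asparagine synthetase, was at 17.5 and 20.7 CPM with shRNA against 66.4 and 91.5 CPM (log2 fold -2.04 ± 0.32, edgeR adjusted p = 0.0349). PSAT1, an aminotransferase of serine synthesis, was at 30.7 and 15.2 CPM against 89.3 and 130.5 CPM (log2 fold -2.13 ± 0.36, edgeR adjusted p = 0.0484). PHGDH, the first enzyme of that branch, was at 27.6 and 88.2 CPM against 209 and 236 CPM and was not called (edgeR adjusted p = 0.0932). Beyond these the amino acid and stress response list was mixed: 12 of 17 folds were below 0 with a median of -0.29, and ATF4, the transcription factor of that response, was at 370.2 and 384 CPM against 480 and 454 CPM. CMBL, a hydrolase, was called lower too, with 189 and 263 CPM against 587 and 683 CPM. Among genes too scarce for the fit, FAM178B had 0 UMIs in both shRNA libraries against 6 and 4. With 3 UMIs set for the shRNA arm it would be 5.29-fold lower, the counting error of the other arm left out.

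To see whether many cells or few carried these levels, each cell was thinned to 1000 UMIs, which left 332 and 124 cells in the shRNA arm and 164 and 105 in the other, shallower cells being left out. At least 1 UMI of the acute-phase list was found in 90.4% and 95.2% of cells with shRNA, 55.5% with CPI-455, 39.0% with KDM5A cDNA, 25.2% in the scrambled and 39.2% in the untreated library. For PDZK1IP1 the shares were 39.2% (exact 95% interval 33.9 to 44.6) and 45.2% (36.2 to 54.4) with shRNA, 1.83% (0.379 to 5.25) with CPI-455 and 5.71% (2.13 to 12.0) with KDM5A cDNA. Before thinning they were 67.6%, 71.1%, 6.93% and 12.2%. Its higher level thus came with UMIs in many more cells.

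LCN2 had a UMI in 78.3% and 90.3% of thinned cells with shRNA, 42.7% with CPI-455 and 28.6% with KDM5A cDNA (91.2%, 92.8%, 70.8% and 59.5% before thinning). SCD was the reverse, in 1.51% and 2.42% of cells with shRNA and in 21.3% with CPI-455 and 11.4% with KDM5A cDNA (6.15%, 6.58%, 37.1% and 34.4% before thinning). The sterol list as a whole gave 52.4% and 46.0% of cells with shRNA, 75.6% with CPI-455 and 90.5% with KDM5A cDNA, then 55.9% in the scrambled and 93.9% in the untreated library. These intervals cover counting error only. The libraries hold a single line, so no other cell type gives the level that free RNA would add, and its part in the shares was not tested.

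**Figure D4:**
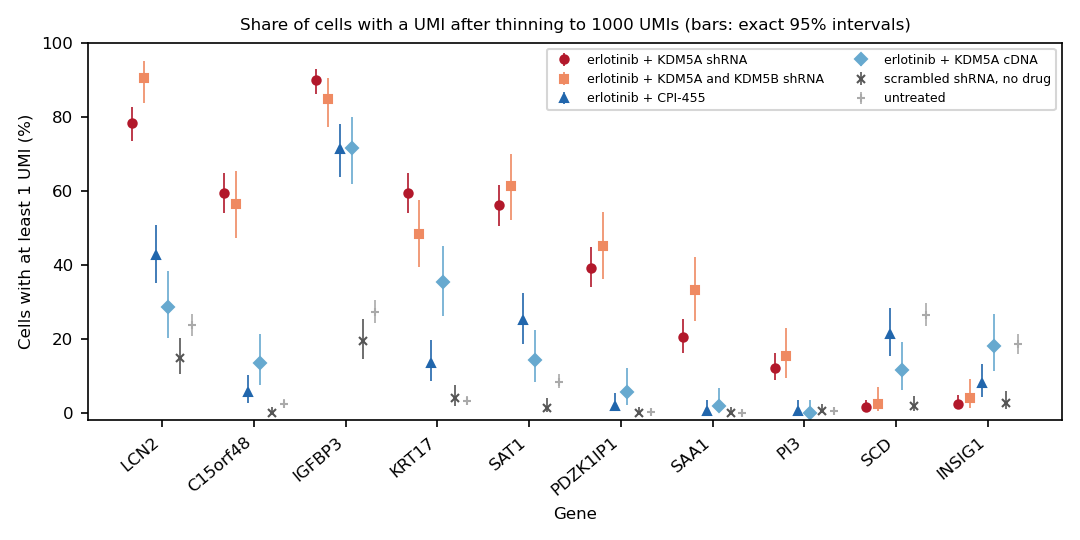
Share of cells, each thinned to 1000 UMIs, with at least 1 UMI of a gene, per library, with exact 95% binomial intervals. For PDZK1IP1, SAA1 and PI3 the shRNA libraries lie above all others, and for SCD and INSIG1 the scrambled library lies near them.

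Several groups gave no call between the arms. Of 28 G2/M genes tested the median log2 fold was -0.38 and of 16 S phase genes -0.20, while summed G2/M levels were 715 and 1423 CPM with shRNA and 1407 and 1291 CPM without, far below 6183 CPM in the scrambled and 9219 CPM in the untreated library. The arms overlapped in these levels, and the median turned to 0.23 without the KDM5A shRNA library. The 14 NRF2 and ferritin genes had a median of -0.26 and the 13 glycolytic genes -0.27, each -0.04 without KDM5A cDNA. The 20 lysosome and autophagy genes had a median of 0.34, which was 0.55 without CPI-455 and 0.16 in thinned cells, and the 53 ribosomal protein genes had one of -0.12, which was -0.04 without KDM5A cDNA. The S phase median was -0.84 in thinned cells. Of the 13 mitochondrial transcripts, 10 were lower in both shRNA libraries (23.9% of all genes), in step with the mitochondrial shares given above.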

How the data were processed

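Drop-seq libraries of PC9 cells, 1 per condition, were analysed from the deposited counts: whole UMIs per gene symbol and barcode, not normalized, as the authors' tables showed. The submitters' processing notes name STAR, FastQC and GRCh37.p13 (hg19). Versions, the counting tool and strand handling are not given in the sources used here. Cells were kept and UMIs summed per library as described above, without a doublet caller, since doublets of 1 line look alike. The arms were compared with edgeR 4.0.16 (TMM, filterByExpr, robust quasi-likelihood, 2 residual degrees of freedom, common coefficient of variation 0.185), tested on simulated data. Fold SEs derive from the fold and F statistic. Gene types came from GENCODE by symbol, which matched 72.2% of 26195 symbols and at least 95.8% of UMIs per library. The 3-UMI floor was between 1.88 and 5.08 CPM in the erlotinib libraries. Nothing in the labels gives sequencing batches.

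Members and lists were chosen with earlier results of these data known. Named are KDM5A, KDM5B, EGFR, the 15 genes per direction furthest apart beyond counting error, up to 10 calls per direction, and up to 6 list members with the most UMIs; other names in the text (further called genes and list members) were chosen after their values were seen. A few genes are not reported here. Alternatives were DESeq2 1.42.0, limma 3.58.1 (voom), other scalings, filters and cell limits, a fit of all 6 libraries, and leaving out each library.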

Additional observations from a re-analysis of the deposited data

How the results depend on the processing

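The fold of each called gene kept its direction under every alternative that tested it. Of 38 list medians, 14 changed sign under some alternative, all with a main median between -0.42 and 0.23. Examples are G2/M (0.23 without KDM5A shRNA), keratins (0.53) and MAPK output (0.18 from -0.42) without CPI-455, and immediate early genes (-0.22 from 0.09 without KDM5A cDNA). DESeq2 called 75 genes higher and 24 lower, sharing 25 and 8 with edgeR, and limma-voom called 45 and 22, sharing 25 and 8. Without the low-count filter the counts were 195 and 129, with cells thinned to 1000 UMIs 32 were higher and 24 lower, of which 20 and 3 were among the main calls (2903 genes tested), and without mitochondrial genes and processed pseudogenes 14 were lower. When all 6 libraries were fitted as 3 arms, so that the drug-free pair entered the spread, edgeR called 10 genes higher and 0 lower (525 lower at an unadjusted p under 0.05; DESeq2 on the 4 libraries gave 24). Leaving out 1 library gave between 56 and 212 calls higher and between 27 and 326 lower, and between 343 and 660 genes higher and 339 and 1083 lower beyond counting error. The criterion of genes beyond counting error is looser with a library left out. Thinning left 60 and 56 genes beyond counting error. Calls of CALR, CD59, HSPA5 and SEPW1 were lost with all barcodes and with at most 10% mitochondrial UMIs, where ASNS was also lost (edgeR adjusted p between 0.0507 and 0.0875). Thinning ended the calls of CTGF, FADS2, GBP2, PLAUR and pLVTHM, and limma-voom that of S100A9. The cause of these changes was not tested. Depth limits the KDM5A cDNA library most, where 3 UMIs are 5.08 CPM. No paired analysis was possible because the labels give no replicate numbers and each condition has 1 library.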
